A study of Aspergillus nidulans with 4 samples.

Results

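Ribosomal proteins are the protein part of the ribosome, the particle of RNA and protein that translates mRNA. The small subunit reads the mRNA and the large subunit joins amino acids, and a cell needs the proteins of both subunits in matched amounts. In yeasts their genes are transcribed strongly and together during fast growth and are turned down together when sugar or nitrogen runs short. In the filamentous fungus Aspergillus nidulans they were followed here in 4 RNA-seq libraries from mycelium of the biA1 strain, which served as wild type. It grew in minimal medium at 37 °C, for 9 to 12 h.

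The genes were chosen by the words of their deposited descriptions, which had to name a ribosomal protein or a structural constituent of the ribosome and not mitochondria. This gave 51 of the 7752 genes listed in any sense table, and all 51 had a count in every library and an abundance above the minimum used in every comparison. Ribosomal protein genes whose description lacks these words were not counted. The descriptions do not all fit the label of a cytosolic ribosomal protein. Such a protein was read from 35 of them: 14 of the small subunit, 18 of the large subunit and 3 with no subunit given. In 12 genes only a predicted domain is described, and the ribosome it belongs to is not stated. The other 4 were AN0817, whose orthologs regulate the transcription of ribosomal protein genes, nsa2 (AN2926) and AN4560, both described as putative proteins of the large subunit but with yeast counterparts, Nsa2 and Rlp24, that help to assemble it, and AN8225, an ortholog of yeast Mrpl1p, a protein of the mitochondrial ribosome. One of the 18 large subunit genes, AN4016, is described as a possible pseudogene similar to L40, and its counts may include reads from other copies. This grouping was made from the descriptions and RefSeq symbols after the values were known.

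The media combined 1% glucose, a repressing carbon source, or 0.1% fructose, a non-repressing one, with 10 mM ammonium tartrate, a repressing nitrogen source, or urea, a non-repressing one. Urea is given as 10 mM by the sample labels but as 5 mM by the growth protocol. Kind and amount of sugar changed together, and tartrate was present only with ammonium, so these cannot be told apart. Each library came from the pooled RNA of 3 cultures, depleted of ribosomal RNA, so there is 1 library per medium, no replicate check and no test, and "higher" and "lower" describe these libraries. Sense counts over the listed genes ranged from 547041 in fructose with ammonium to 2606076 in glucose with ammonium. The comparisons share libraries: fructose with urea stands in both the nitrogen comparison in fructose and the carbon comparison with urea.

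Together the 51 genes took 6.24% of all sense counts in glucose with ammonium (exact 95% Clopper-Pearson interval 6.21% to 6.27%) and 5.98% in glucose with urea (5.94% to 6.02%). They took 1.79% in fructose with ammonium (1.76% to 1.83%) and 0.433% in fructose with urea (0.419% to 0.447%). These intervals, and all those below, cover counting error only, because each medium has 1 library. Amplified reads are not independent molecules, so the intervals may be too narrow even for that error. The share was thus 3.48-fold lower in fructose than in glucose with ammonium and 13.8-fold lower with urea. It was 4.14-fold lower with urea than with ammonium in fructose, and 1.04-fold lower in glucose. Counts are relative to their library, and in RNA of whole mycelium fewer cells of a kind and less RNA per cell cannot be told apart.

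**Figure D1:**
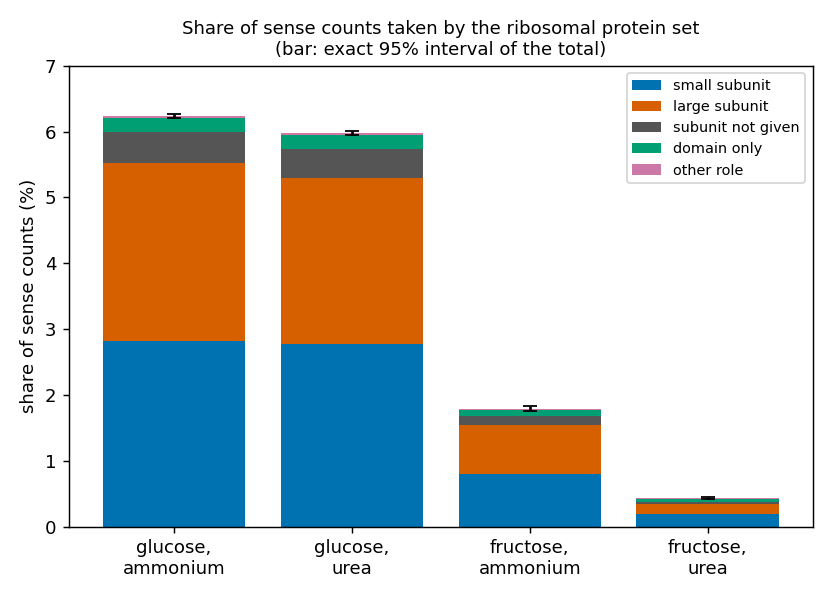
Share of the sense counts of each library (vertical axis, percent) taken by the 51 genes, stacked by the group of their description, with the exact 95% interval of the total. The bars stand at 6.24% and 5.98% in glucose and at 1.79% and 0.433% in fructose.

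All 35 named ribosomal protein genes had the same order of levels. Levels in CPM, sense counts scaled to a common library total, were lowest in fructose with urea, next in fructose with ammonium, and higher than both in either glucose library. That order was found for 45 of the 51 genes, against 18.8% of the 6789 genes with counts from all libraries. The 35 were set apart after the values were known. Both fructose libraries lay below both glucose libraries for 47 of the 51 genes, against 28.2% of all genes. Among the 35, the median level was 1306 CPM in glucose with ammonium, 1120 CPM in glucose with urea, 367 CPM in fructose with ammonium and 56.6 CPM in fructose with urea. The lowest count of any of the 35 was 7, for AN4087 in fructose with urea, so none was at 0.

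**Figure D2:**
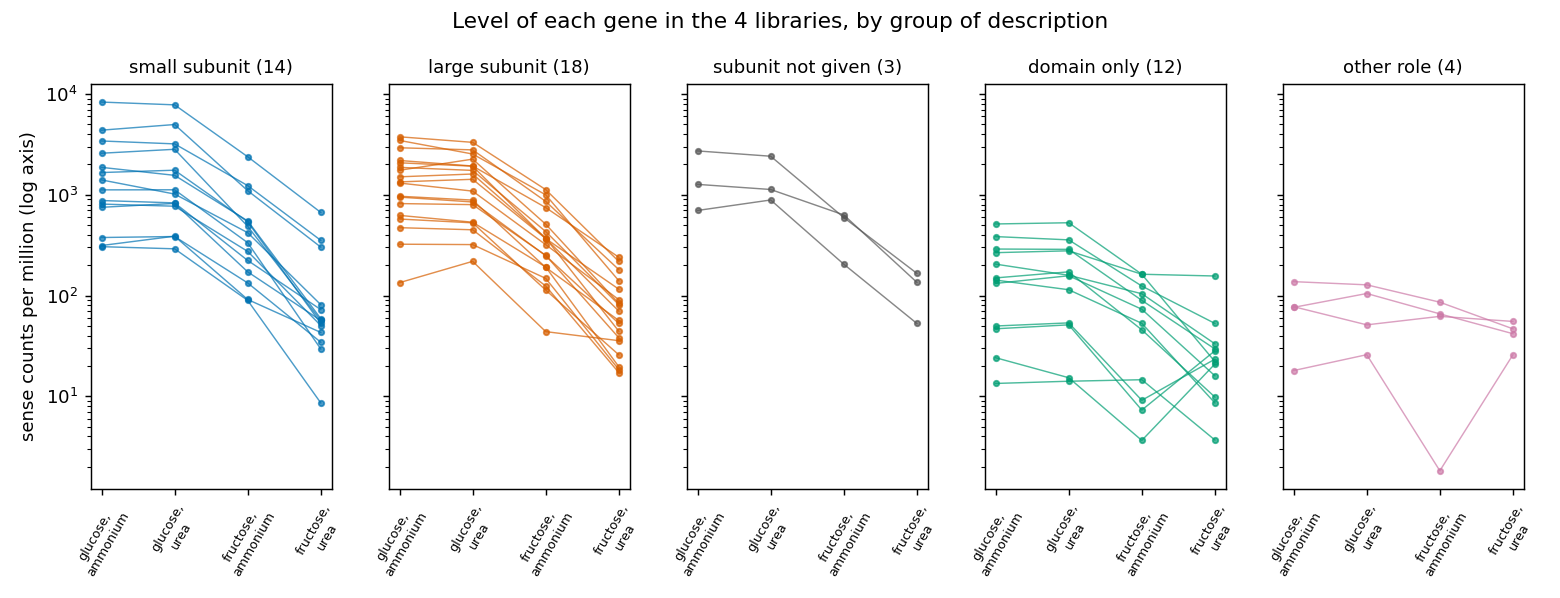
Level of each gene (vertical axis, CPM on a log axis) in the 4 libraries (horizontal axis), with 1 line per gene and 1 panel per group of description. The lines of the 35 named ribosomal protein genes stay level between the glucose libraries and then step down to fructose with ammonium and again to fructose with urea, while the 12 domain-only and the 4 other genes follow mixed courses.

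The small subunit genes include the most counted gene of the set, rps23 (AN1345), whose protein lies at the decoding centre, where codon and anticodon are matched. It had 8303 CPM in glucose with ammonium, 7794 CPM in glucose with urea, 2382 CPM in fructose with ammonium and 668 CPM in fructose with urea. On its own it took 0.83% of sense counts in glucose with ammonium and 0.0668% in fructose with urea. The gene rps21 (AN3823) had 4371, 4971, 1097 and 303 CPM in the same order of media, and AN10130, whose orthologs belong to the small subunit, had 3414, 3195, 1232 and 353 CPM. Both were high in the glucose libraries and lowest in fructose with urea, like rps23. Counts were not divided by gene length, so levels are not compared between genes.

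Other small subunit genes had a steeper step in fructose with urea. AN5222, whose orthologs act in the assembly of the small subunit, had 2581, 2823, 486 and 56.6 CPM in the order above. AN4803, described with a role in translational fidelity, had 1118, 1120, 335 and 29.5 CPM. AN5715, for S26, a protein near the channel where mRNA leaves the ribosome, had 1660, 1751, 539 and 52.9 CPM. In all of these the glucose libraries lay close together and the fructose libraries far apart. AN4087, for S3, a protein at the channel where mRNA enters, had 305, 291, 89.6 and 8.61 CPM, with only 7 counts behind the last value. AN11411 differed least between the fructose libraries among the small subunit genes, with 313, 388, 91.4 and 43.1 CPM.

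Among the large subunit genes, rpl16a (AN4202) had 3757, 3310, 1124 and 218 CPM, and rpl3 (AN6202), for a protein close to the site of peptide bond formation, had 3456, 2535, 998 and 140 CPM. The gene rpl37 (AN4787) had 2924, 2786, 859 and 181 CPM. These levels followed the same order as in the small subunit, with fructose and urea lowest. AN1166, described with a role in large subunit assembly, had 2075, 1920, 367 and 70.1 CPM, and AN0570 had 1506, 1605, 371 and 44.3 CPM. AN1013, for L5, which binds the 5S ribosomal RNA in yeast, had 1306, 1086, 320 and 91.1 CPM. AN2275 departed most from the rest. It had 134, 218, 43.9 and 35.7 CPM, so its level in fructose with urea was close to that with ammonium, and its level in glucose with urea was above that with ammonium.

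The order of the 35 levels was much the same in the 2 glucose libraries and in fructose with ammonium, and less so in fructose with urea. Across genes, which are not independent and keep their lengths from library to library, Spearman's rho of the log2 CPM was 0.98 between the glucose libraries. It was 0.953 between glucose and fructose with ammonium, and 0.844 between glucose and fructose with urea, where counts are lowest. Between the subunits, the share of the small subunit with rps23 included was lowest in glucose with ammonium and highest in fructose with urea. This order depends on rps23, which had 21639 of 73358 small subunit counts in glucose with ammonium and 13239 of 47074 in glucose with urea. It had 1303 of 4390 in fructose with ammonium and 543 of 1519 in fructose with urea. Without rps23 the share is not highest in fructose with urea, so the order is not one of the small subunit as a whole. Of the counts of both subunits, the 14 small subunit genes held 51.0% in glucose with ammonium (50.8% to 51.3%), 52.4% in glucose with urea (52.1% to 52.7%), 52.0% in fructose with ammonium (50.9% to 53.1%) and 55.0% in fructose with urea (53.1% to 56.9%).

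In glucose, the change from ammonium to urea left the set almost level. Ratios below are log2 ratios after TMM scaling, which balances the libraries on the bulk of the genes, with a prior count of 1, and each interval beside one is an exact 95% interval of the scaled counts. All 51 genes lay within 2-fold, as did 88.5% of the 6354 genes past the abundance minimum, a deposited mean log2 CPM of 3. The median of the 35 was -0.02, against -0.00417 for all genes, and 0 of the 51 were 4-fold lower or higher, against 0.535% and 1.34% of all genes. The middle 50% of the 35 spanned 0.25 on the log2 scale and that of all genes 0.69.

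Small differences in glucose still exceeded counting error for 21 of the 35, with 11 intervals below 0 and 10 above. Among all genes 46.0% of intervals excluded 0, 22.6% below it and 23.3% above, at a median of 228 counts in both glucose libraries together against 5249 for the 35, and intervals narrow with counts. The highest ratio was that of AN2275 at 0.75 (0.54 to 0.97), followed among the named genes by AN10681 at 0.42 (0.36 to 0.48) and AN6082 at 0.40 (0.30 to 0.50). AN6082 is described by its orthologs' binding of a splice site and repression of splicing. The lowest were AN3413, for S2, at -0.41 (-0.50 to -0.33) and rpl3 at -0.40 (-0.45 to -0.34). With 1 library per medium the spread between cultures is not known, so these ratios are not shown to exceed it.

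With fructose as the sugar, nearly all of the genes were lower in urea than in ammonium. Of the 51, 30 were at least 4-fold lower in urea, against 11.0% of the 7203 genes past the minimum, and 1 was at least 4-fold higher, against 11.4%. Of the 35 named genes 26 were at least 4-fold lower and 34 at least 2-fold lower, the latter against 23.4% of all genes. The median of the 35 was -2.44 (all genes 0.07). It was -2.33 for the 14 small subunit genes and -2.56 for the 18 of the large subunit.

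AN4803 had the lowest ratio at -3.63 (-4.38 to -3.08), with 183 counts in ammonium and 24 in urea. AN5715, for S26, stood at -3.51 (-4.05 to -3.08) and AN0843 at -3.38 (-3.89 to -2.98), all 3 of the small subunit. In the large subunit AN10416, an ortholog of yeast RPL28, had the lowest ratio at -3.38 (-4.34 to -2.72), ahead of AN0570 at -3.22 (-3.82 to -2.75) and AN8704, for L24a, at -3.10 (-4.10 to -2.40). At the other end, AN2275 stood at -0.48 with an interval that included 0 (-1.33 to 0.35), and AN11411 at -1.25 (-1.95 to -0.63). The ratio of the most counted gene, rps23, was -2.03 (-2.18 to -1.89).

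The ratios of the 35 spread more in fructose than in glucose. Their standard deviation was 0.69 for nitrogen in fructose and 0.23 in glucose, while 17 of the 35 intervals in fructose and 16 in glucose held the median of the set. Counts are lower in fructose, and their part in this spread was not tested. The neighbours AN4803, of the small subunit, and AN4802, for L21 of the large subunit, are next to each other in the RefSeq gene table of assembly ASM1142v1, the only such pair among the 51. Their ratios in fructose were -3.63 (-4.38 to -3.08) and -2.59 (-3.02 to -2.21). In glucose they were 0.05 (-0.03 to 0.14) and -0.05 (-0.11 to 0.02).

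The nitrogen comparisons in glucose and fructose share no library, so they can be set side by side. Subtracting the glucose ratio from the fructose ratio left all 35 named genes below -1, against 27.5% of the 6024 genes past both minimums, with a median of -2.42, a lowest value of -3.69 (AN4803) and a highest of -1.23 (AN2275). Over those 6024 genes the median difference was -0.13. For 12 of the 51 genes the ratio had opposite signs with both intervals clear of 0, above 0 in glucose and below 0 in fructose, against 7.80% of the genes. These shares are not matched for depth. Intervals narrow with counts, and the median in both glucose libraries together was 5249 counts for the 35 and 228 for all genes. The difference between the sugars rests on 4 single libraries and was not tested.

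**Figure D3:**
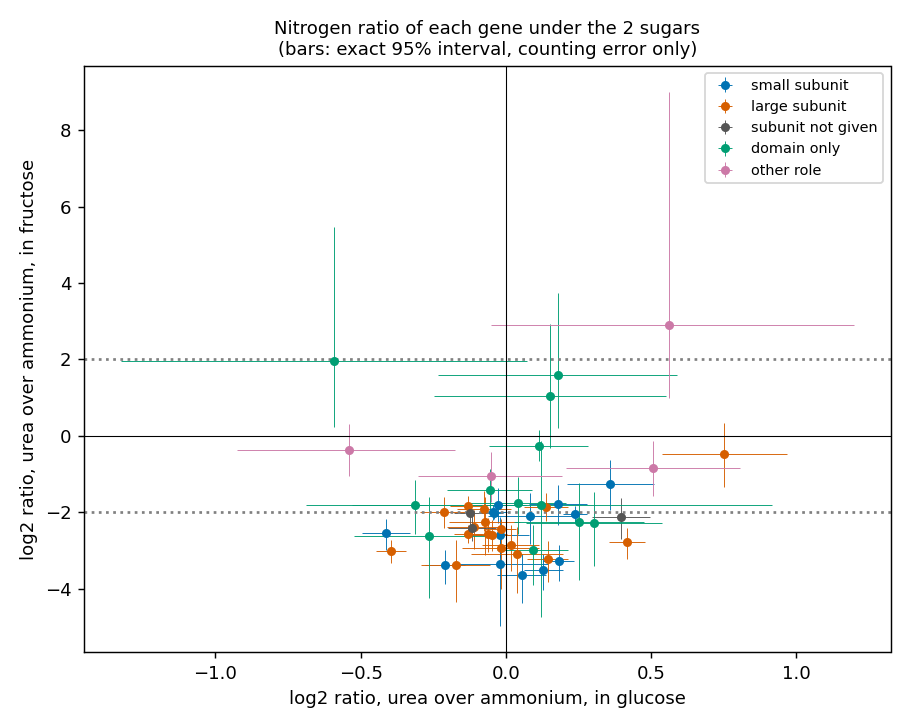
Log2 ratio of urea over ammonium in fructose (vertical axis) against that in glucose (horizontal axis), 1 point per gene, coloured by group of description, with exact 95% intervals for counting error and dotted lines at 4-fold in fructose. In glucose all points lie between -0.59 and 0.75, and in fructose the points of the 35 named genes run from -3.63 to -0.48.

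With ammonium as nitrogen source, the named genes were lower in fructose than in glucose. All 35 named genes were at least 2-fold lower in fructose than in glucose, against 22.6% of the 6647 genes past the minimum. At 4-fold the number was 11 of 35, or 15 of the 51, against 7.01% of all genes, and 0 of the 51 were 4-fold higher, against 8.33%. The median of the 35 was -1.81 and that of all genes -0.11. The middle 50% of the 35 spanned only 0.31 on the log2 scale (all genes 1.63). Of the 35 intervals 21 held the median, 10 lay below it and 4 above, so the step was not the same for all.

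The lowest named genes with ammonium were AN1166 at -2.54 (-2.75 to -2.34) and AN5222 at -2.45 (-2.63 to -2.27), followed by AN0278 and AN6629, for L14, both at -2.38. The intervals of these genes overlapped their neighbours in the order. The smallest differences were those of AN4777, a structural constituent of the ribosome with no subunit given, at -1.05 (-1.21 to -0.89), AN8704 at -1.17 (-1.52 to -0.84) and AN10130 at -1.51 (-1.63 to -1.40). Between the fructose libraries AN8704 was then 8.57-fold lower in urea and AN10130 3.99-fold lower, just short of the 4-fold call.

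With urea as nitrogen source the sugar comparison was the steepest. All 35 named genes, and 42 of the 51, were at least 4-fold lower in fructose, against 15.2% of the 7135 genes past the minimum, and 0 were 4-fold higher, against 14.6%. The median of the 35 was -4.25 (all genes -0.03), with a range from -5.89 to -2.85. AN5222 was lowest at -5.89 (-6.36 to -5.49), with 4796 counts in glucose and 46 in fructose, a 59.1-fold difference. AN4803 stood at -5.47 (-6.16 to -4.94), AN0570 at -5.42 (-5.96 to -4.97) and AN5715 at -5.29 (-5.79 to -4.88). The named genes with the smallest difference were AN2275 at -2.85 (-3.48 to -2.34), AN4016, the possible pseudogene, at -3.27 (-3.49 to -3.06) and AN4777 at -3.32 (-3.62 to -3.05).

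**Figure D4:**
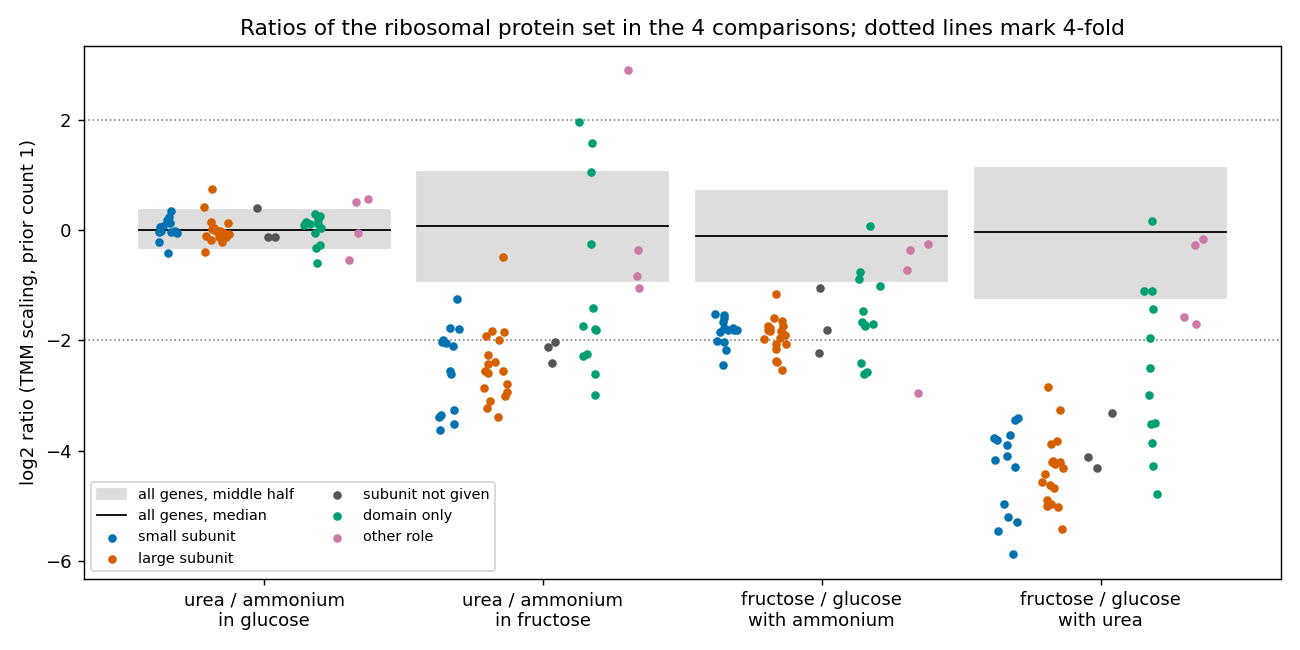
Log2 ratio of each of the 51 genes (vertical axis) in the 4 comparisons (horizontal axis), coloured by group of description, over the middle 50% (grey) and the median (black line) of all genes past the minimum, with dotted lines at 4-fold. The named ribosomal protein genes centre on the median of all genes for nitrogen in glucose, from -0.41 to 0.75, and lie below the grey range in the carbon comparisons, with AN2275 at -0.48 the only one of them inside it for nitrogen in fructose.

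Of the 12 genes known only by a predicted domain, 10 had both fructose libraries below both glucose libraries, against 28.2% of all genes. The full order of the named genes was found in 8, against 18.8%. At least 4-fold lower were 7 of the 12 for carbon with urea, against 15.2% of all genes, and 4 for nitrogen in fructose, against 11.0%. In AN2301 the levels were 513 and 527 CPM in glucose with ammonium and urea and 163 and 22.2 CPM in fructose, much like the named genes, and its ratios were -2.99 for nitrogen in fructose and -4.79 for carbon with urea. AN4452, AN6039, AN8256, AN0470, AN4652 and AN5522 also lay far below 0 for carbon with urea, from -4.27 to -2.49. AN6489 stayed closer to level, with 266, 278, 163 and 156 CPM. AN10477, AN8176 and AN11568 were lowest in fructose with ammonium, with 5, 4 and 2 counts there against 19, 23 and 17 in urea. Their nitrogen ratios in fructose were 1.05 (-0.31 to 2.93), 1.59 (0.20 to 3.75) and 1.97 (0.24 to 5.48), opposite in sign to all 35 named genes. AN11230 had 35, 24, 8 and 3 counts, with intervals below 0 for nitrogen in fructose (-4.73 to -0.13) and carbon with urea (-4.58 to -0.49) and one that included 0 for carbon with ammonium (-1.24 to 1.21).

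Of the 4 genes with another described role, AN4560 and AN8225 had the order of levels of the named genes, with smaller differences, and the others had not. AN4560, the Rlp24 ortholog, had 76.4, 105, 65.8 and 41.8 CPM, and its ratio for carbon with urea was -1.57 (-2.17 to -1.06), whereas AN8704 for L24a, the ribosomal protein that takes the place of Rlp24 in yeast, stood at -4.32 (-5.23 to -3.65). The intervals of the pair did not overlap. The assembly factor gene nsa2 had 47, 44, 1 and 21 counts and was the gene at least 4-fold higher in urea in fructose, at 2.91 (0.99 to 8.99), a ratio that rests on 1 count in ammonium. AN8225, the Mrpl1p ortholog, stood at -1.70 (-2.26 to -1.22) for carbon with urea. AN0817, whose orthologs regulate ribosomal protein genes, had 77.5, 51.2, 62.2 and 55.4 CPM. Its ratio for carbon with urea was -0.15 with an interval that included 0 (-0.71 to 0.38).

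Of other parts of the translation apparatus, taken by words of their descriptions, 3 lists had medians below 0 in each comparison, nearer to 0 than that of the named genes in the fructose comparisons. For carbon with urea, 11 of 32 mitochondrial ribosomal protein genes were at least 4-fold lower (median -1.67). So were 21 of 65 genes of ribosome biogenesis and rRNA processing (median -1.45) and 12 of 36 translation factor genes (median -1.48). Of all genes 15.2% were 4-fold lower, with a median of -0.03. There 1 translation factor gene was 4-fold higher, against 14.6% of all genes. For nitrogen in fructose the medians were -0.82, -0.86 and -0.71, with 6 of 32, 13 of 62 and 3 of 35 genes 4-fold lower, and 4 genes of ribosome biogenesis 4-fold higher. Of all genes 11.0% were 4-fold lower there, so the share of translation factors lay below that background. The share of ribosome biogenesis genes 4-fold higher also lay below that of all genes, 11.4%. For carbon with ammonium they were -1.06, -1.03 and -1.01, with 1 of 33, 13 of 64 and 4 of 36 genes 4-fold lower, beside 7.01% of all genes and a median of -0.11, so that the share of the mitochondrial list lay below the background. In glucose the medians for nitrogen were -0.19, -0.16 and -0.14. In these lists 0 genes were 4-fold lower, against 0.535% of all genes. At 4-fold higher there was 1 translation factor gene, against 1.34% of all genes. For RNA polymerase I, which transcribes ribosomal RNA genes, only 3 genes were found, and their ratios lay on both sides of 0 in each comparison. They ran from -4.37 to 0.57 for carbon with urea and from -3.96 to 1.31 for carbon with ammonium. In glucose they ran from -0.58 to 0.54 for nitrogen. For nitrogen in fructose only 2 passed the minimum, from -0.22 to 2.27, with a median of 1.02, above 0 unlike that of the named genes.

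The authors' deposited table for nitrogen in fructose gave an FDR of 0.05 or less to 37 of the 51 genes, all lower in urea, against 11.5% lower and 9.98% higher among all genes of that table. Their deposited tables for carbon gave it to 43 genes with urea and 29 with ammonium, all lower in fructose. Among all genes these deposited tables of the authors gave it to 18.4% lower and 18.9% higher with urea, and to 5.52% lower and 9.78% higher with ammonium. In the authors' deposited table for nitrogen in glucose it went to 0 of the 51, against 0.217% lower and 0.791% higher among all genes. These FDR values rest on an assumed biological coefficient of variation of 0.3, not on replicates.

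Antisense counts, from the strand opposite to the annotated gene, were present at all 51 genes, and as a group they were highest and lowest in the same libraries as the sense counts. The 51 genes took 6.27% of antisense counts in glucose with ammonium and 5.93% in glucose with urea, close to their shares of sense counts, 6.24% and 5.98%. In fructose they took 1.57% of antisense counts with ammonium and 0.341% with urea, below their shares of sense counts, 1.79% and 0.433%. Of the reads on both strands of the 35 named genes, 28.9% were antisense in glucose with ammonium and 20.1% in fructose with urea, where all genes listed on both strands had 28.8% and 24.5%. The antisense median of the 35 was 0.08 for nitrogen in glucose, -2.58 for nitrogen in fructose, -1.93 for carbon with ammonium and -4.69 for carbon with urea. At least 4-fold lower on the antisense strand were 34 of the 35 for carbon with urea, against 17.8% of 7117 genes, 26 for nitrogen in fructose, against 13.3% of 7248, and 16 for carbon with ammonium, against 13.0% of 6723. At rpl16a the antisense counts came close to the sense counts in the glucose libraries, with 8913 against 9790 in ammonium and 5396 against 5622 in urea. In fructose they were further below, with 347 against 615 in ammonium and 106 against 177 in urea.

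**Figure D5:**
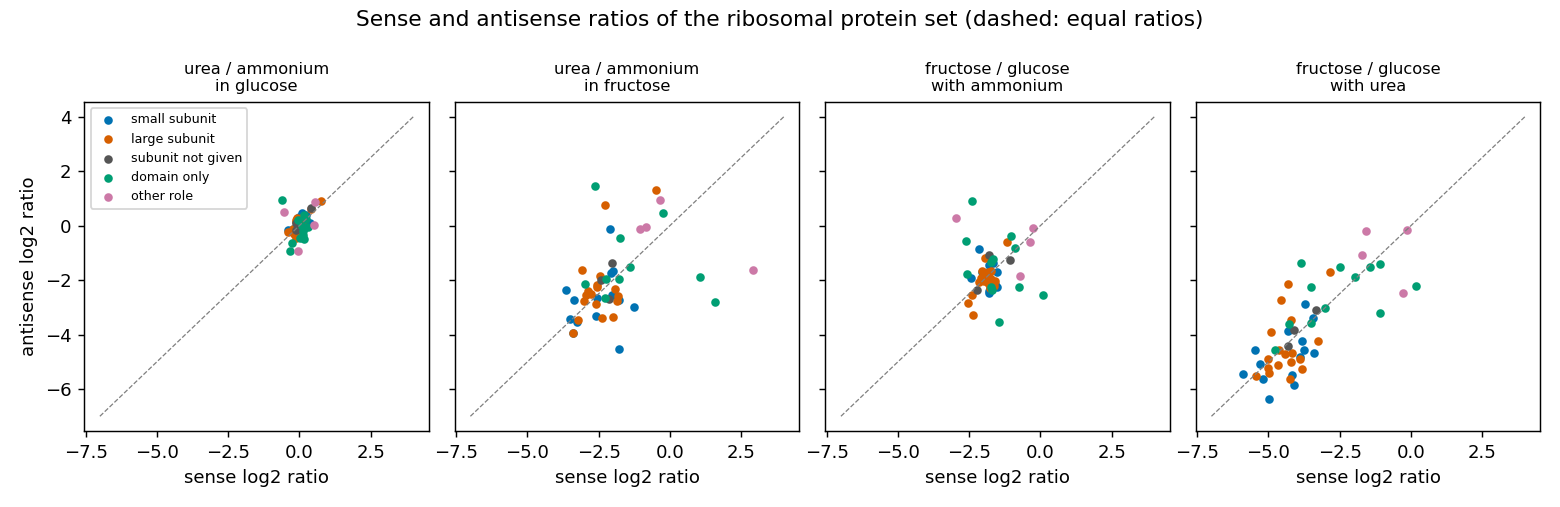
Antisense log2 ratio (vertical axis) against sense log2 ratio (horizontal axis) of the 51 genes in the 4 comparisons, coloured by group of description, with a dashed line where the ratios are equal. Single genes scatter around the line, most widely in fructose, where named genes span -4.52 to 1.31 antisense for urea over ammonium. Both ends rest on few antisense counts, 35 in ammonium and 1 in urea for AN6632, and 3 and 12 for AN2275. The named genes centre on medians of -4.69 antisense and -4.25 sense for fructose over glucose with urea.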

How the data were processed

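The deposited tables hold whole-number read counts per gene and strand for pairs of libraries, with the authors' log2 fold change, mean log2 CPM, p-value and FDR, per the file headers. The submitters' processing notes name HTSeq and edgeR. Aligner, build and annotation: not given in the sources used here. Another 16 columns of normalised values were not used. Libraries were made with a ScriptSeq kit and sequenced from paired ends, per the labels.

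From the counts, log2 ratios were computed per table with edgeR 4.0.16 in R 4.3.3 (TMM, prior count 1) and checked on simulated data. With at least 20 counts in both libraries they lay within 0.0827 of the deposited log2 fold changes, once the sign of the nitrogen tables was turned. A gene was called at 4-fold and a mean log2 CPM of 3 or more. CPM divides by the summed counts of the listed genes, where 3 counts are 1.15 CPM in the deepest and 5.48 CPM in the shallowest library. Alternatives were total count scaling, DESeq2 1.42.0 size factors, TMM without the set, a prior count of 5, no minimum and the 35 named genes. Genes named in full are those with the most counts and the lowest or highest ratios, and all members may be named. The members and lists were chosen with earlier results of these data known. Names came from the tables and, for rps21, rps23 and rpl17, from RefSeq, where all 51 genes were matched. Sequences were not used here.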

Additional observations from a re-analysis of the deposited data

Results flagged for a closer look

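For 12 of the 51 genes the nitrogen ratio had opposite signs in the sugars, higher in urea in glucose and lower in urea in fructose, with both counting intervals clear of 0, as did 7.80% of the 6024 genes past both minimums. The difference was not tested, since each medium has 1 library, and the ratios in glucose are small. The shares are not matched for depth, and intervals narrow with counts, which are higher for the named genes than for most genes. The fructose ratio less the glucose ratio was -3.64 for AN5715, -3.45 for AN5222, -3.37 for AN0570 and -3.20 for AN10681. It was -2.59 for AN0470, -2.52 for AN6082, -2.50 for AN4452 and -2.29 for rps21 (AN3823). It was -1.99 for AN0445, -1.95 for AN6632, -1.61 for AN11411 and -1.34 for AN4560.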

How the results depend on the processing

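With 1 library per medium, no replicate could be left out. No paired analysis was possible because each medium has 1 library. Of the values recomputed under another setting, 88 stayed within their limits, 20 moved and 0 turned in direction. The 88 include values that could not change. All 51 genes pass every minimum and are listed for every comparison. Dropping the minimum, or keeping only genes listed for every comparison, therefore left the same genes and says nothing on stability. Other values within limits still differed from the main ones. Of the 51 genes, those 4-fold lower for nitrogen in fructose numbered 25 under total count scaling and 32 under DESeq2 size factors, against 30. For carbon with ammonium both scalings gave 13, against 15. Total count scaling moved the median of all genes by 0.19 for nitrogen in fructose and 0.26 for carbon with urea, and the median of the 35 minus that of all genes was -2.50 and -4.22 under it, against -2.51 and -4.22. Under total count scaling the medians of the 51 genes became -0.0681 and -1.92 for nitrogen (glucose, then fructose) and -1.76 and -3.84 for carbon (ammonium, then urea), against -0.02, -2.12, -1.81 and -4.10. Genes 4-fold higher for nitrogen in fructose became 2, and the median difference of nitrogen ratios -1.95 against -2.19. DESeq2 size factors gave -1.76 for carbon with ammonium. A prior count of 5 gave -2.0005 for nitrogen in fructose with 0 genes 4-fold higher, -3.88 for carbon with urea and a difference of -2.01. Over the 35 named genes the medians were -2.44 and -4.25 for these comparisons, with 0 genes 4-fold higher, a difference of -2.42, and shares of 5.99%, 5.73%, 1.69% and 0.375% of sense counts. Without AN4060, which overlaps another gene in RefSeq, an alternative chosen after seeing the data, carbon with urea gave -4.001. Depth limits the fructose libraries: 11 of the 51 genes had under 20 counts in fructose with urea.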
